A study of Homo sapiens with 6 samples.

Results

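Transcripts of the mitochondrial ribosomal proteins were followed in a comparison of SOX9 knockdown with control cells. The members were the probe sets that carry a single gene symbol beginning with MRPL or MRPS and a digit, 158 of 49293 probe sets on the arrays and 73 of 18574 genes. MRPL symbols, 45 genes with 90 probe sets, name proteins of the large subunit. MRPS symbols, 28 genes with 68 probe sets, name proteins of the small subunit. The cells are labelled HepG2, an established line from a human liver cancer. They were infected with an empty virus (control, 3 arrays) or with one that expresses an shRNA, a hairpin that silences a gene, directed at SOX9 (knockdown, 3 arrays), and a clone was built from each infection. Titles, sources and genotypes separate the groups in this way, while the free-text description of the knockdown samples repeats that of the controls and names the empty virus. Both groups therefore carry a virus, and what differs between 2 clones for other reasons cannot be told apart from the knockdown. The labels do not say whether the 3 arrays of a group come from separate cultures, so the p-values may cover technical spread alone. The study asked which cellular pathways differ when SOX9, a transcription factor of biliary and progenitor cells, is lowered.

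Mitochondria keep their own ribosome, which translates the few messenger RNAs of mitochondrial DNA into core subunits of the respiratory chain and the ATP synthase. Its ribosomal RNAs are encoded in mitochondrial DNA, but all of its proteins are encoded in the nucleus, made in the cytosol and imported. Many of them descend from ribosomal proteins of bacteria, and others were added in mitochondria and have no bacterial counterpart. In liver, as elsewhere, oxidative phosphorylation depends on this ribosome, and inherited defects of its proteins cause disease of liver, heart or brain.

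Values are log2 signals as deposited, and a fold change is knockdown minus control on that scale. Each gene stood on its probe set with the highest mean signal. A gene was called when limma's adjusted p, corrected over all 18574 genes, was under 0.05, and rose or fell is written only of called genes. SOX9 itself read 8.15, 7.99 and 7.67 on the control arrays against 6.91, 7.08 and 6.90 after knockdown, a log2 fold change of -0.97 (SE 0.13; adjusted p = 0.00114 by limma). The labelled cell type was not borne out by its markers: of 14 hepatocyte genes 2 had a mean of at least 5, and their mean level per array lay between 3.58 and 3.86. ALB (albumin) read 3.14 and AFP (alpha-fetoprotein) 2.70 in control arrays. Mean levels were no higher than 4.58 for 6 endothelial, 4.45 for 6 fibroblast and 4.11 for 8 leukocyte markers on any array. In knockdown arrays 1 marker each rose of the hepatocyte (HNF4A, 0.54), leukocyte (CD68, 0.62) and fibroblast lists (DCN, 0.59) and none of the endothelial list. Their part in the results below was not tested. Array correlations over probe sets were 0.9919 to 0.9959 within and 0.9823 to 0.9919 between groups.

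The promoters of 8 members are printed first, because they show both the letters that recur around the starts of these genes and the range of responses behind like promoters. They are RefSeq windows of the build GRCh38.p14, 250 bases before to 50 after a transcript's start, and 65 of the 73 genes had such a window. MRPL10, MRPL13, MRPL15, MRPL2, MRPL21, MRPL23, MRPL35 and MRPS28 had no entry. Where a gene had several windows the first listed was used. Capitals mark matches on either strand to CCGGAAG, the core letters of ETS factors such as GABPA, and to AAN followed directly by ATGGCGG, letters bound by YY1. The 2 motifs can overlap, since AAG can end the former and begin the latter. MRPL27 (chr17:50373135-50373434, minus strand), MRPS12 (chr19:38930694-38930993, plus strand) and MRPS17 (chr7:55951627-55951926, plus strand) had the largest rises of the family.
MRPL27: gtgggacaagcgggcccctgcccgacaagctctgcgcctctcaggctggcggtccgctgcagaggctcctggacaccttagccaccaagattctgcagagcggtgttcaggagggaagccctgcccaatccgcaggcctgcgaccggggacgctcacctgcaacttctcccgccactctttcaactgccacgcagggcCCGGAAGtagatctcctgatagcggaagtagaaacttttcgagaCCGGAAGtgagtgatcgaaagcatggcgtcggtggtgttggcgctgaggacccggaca
MRPS12: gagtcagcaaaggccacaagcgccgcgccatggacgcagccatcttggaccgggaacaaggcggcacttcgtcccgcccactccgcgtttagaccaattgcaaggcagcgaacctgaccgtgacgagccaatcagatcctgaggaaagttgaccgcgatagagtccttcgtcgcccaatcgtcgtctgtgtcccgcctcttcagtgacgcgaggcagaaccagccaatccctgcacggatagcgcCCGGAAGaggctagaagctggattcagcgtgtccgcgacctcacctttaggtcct
MRPS17: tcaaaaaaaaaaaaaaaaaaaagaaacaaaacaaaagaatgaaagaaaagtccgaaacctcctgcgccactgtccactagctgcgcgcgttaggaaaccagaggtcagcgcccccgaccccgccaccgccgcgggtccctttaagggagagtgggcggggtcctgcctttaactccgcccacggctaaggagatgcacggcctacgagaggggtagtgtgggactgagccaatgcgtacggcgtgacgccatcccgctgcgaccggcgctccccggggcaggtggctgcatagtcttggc
MRPL1 (chr4:77862580-77862879, plus strand) and MRPL46 (chr15:88467339-88467638, minus strand) rose too. MRPS11 (chr15:88467458-88467757, plus strand) is the neighbour of MRPL46 on the other strand, and their windows share 181 bases.
MRPL1: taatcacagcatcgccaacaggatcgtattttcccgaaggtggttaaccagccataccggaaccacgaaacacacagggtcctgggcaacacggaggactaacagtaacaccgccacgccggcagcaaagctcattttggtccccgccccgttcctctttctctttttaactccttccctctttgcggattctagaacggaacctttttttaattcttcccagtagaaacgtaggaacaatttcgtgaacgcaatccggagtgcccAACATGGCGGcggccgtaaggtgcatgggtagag
MRPL46: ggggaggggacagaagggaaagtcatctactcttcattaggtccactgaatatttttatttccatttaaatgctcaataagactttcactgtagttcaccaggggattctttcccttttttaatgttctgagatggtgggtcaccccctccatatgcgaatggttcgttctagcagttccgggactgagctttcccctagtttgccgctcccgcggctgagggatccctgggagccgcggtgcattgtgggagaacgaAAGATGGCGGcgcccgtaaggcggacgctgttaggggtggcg
MRPS11: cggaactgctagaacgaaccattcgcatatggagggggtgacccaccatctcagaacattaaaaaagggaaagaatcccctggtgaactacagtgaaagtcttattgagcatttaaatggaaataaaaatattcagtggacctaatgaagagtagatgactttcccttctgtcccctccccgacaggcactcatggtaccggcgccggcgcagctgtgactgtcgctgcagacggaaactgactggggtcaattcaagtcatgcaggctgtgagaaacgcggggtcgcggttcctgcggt
MRPL44 (chr2:223957213-223957512, plus strand) and MRPS18B (chr6:30617590-30617889, plus strand) were the 2 genes that fell.
MRPL44: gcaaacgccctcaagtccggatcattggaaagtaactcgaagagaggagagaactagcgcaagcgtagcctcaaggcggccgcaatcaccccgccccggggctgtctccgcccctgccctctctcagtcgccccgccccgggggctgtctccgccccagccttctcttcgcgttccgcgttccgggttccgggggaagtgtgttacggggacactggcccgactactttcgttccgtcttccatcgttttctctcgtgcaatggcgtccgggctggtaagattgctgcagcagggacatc
MRPS18B: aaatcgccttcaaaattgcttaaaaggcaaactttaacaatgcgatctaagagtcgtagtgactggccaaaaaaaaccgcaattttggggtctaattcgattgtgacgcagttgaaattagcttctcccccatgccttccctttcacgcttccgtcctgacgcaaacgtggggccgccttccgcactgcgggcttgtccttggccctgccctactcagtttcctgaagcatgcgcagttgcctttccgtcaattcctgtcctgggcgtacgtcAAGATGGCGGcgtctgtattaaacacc
The ETS letters stood in 26 of 65 member windows (40.0%), against 14.6% of the 14492 windows of genes on the arrays and 10.3% of all 35116 windows. The YY1 letters stood in 17 of 65 (26.2%), against 3.38% of genes on the arrays and 2.14% of all windows. In 14 of these 17 windows the YY1 letters began after the transcript start, and in 15 they lay on the gene's own strand. They contain ATG, so some may overlap a start codon. The palindrome of NRF1, GCGCA followed by TGCGC, was in 1 member window (MRPL17; 1.79% of genes on the arrays), and the SOX letters ACAATGG in none of the windows used (2.36%). They were in a further listed window of MRPS2, which rose, and in one of MRPL34, which was not called. The E-box CACGTG was in 10.8% of member windows (8.85% of genes on the arrays) and CCAAT in 30.8% (36.2%).

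Both motifs were found in windows of genes that rose and of genes that were not called. The ETS letters were in 10 of 27 windows of genes that rose (37.0%) and 16 of 36 windows of genes not called (44.4%). The YY1 letters were in 8 of 27 (29.6%) and 8 of 36 (22.2%). Among the promoters above, MRPS17 rose with neither motif, and MRPS18B fell with the YY1 letters. These are matches of letters, not measured binding sites.

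Transcripts of the mitochondrial ribosome were more often higher than lower in knockdown cells. Of the 73 genes 30 rose (41.1%) and 2 fell (2.74%), while 41 were not called. Over all genes tested 8.41% rose and 8.35% fell, 16.8% in either direction. The median log2 fold change of the 73 was 0.25, against 0.03 over all genes, and 57 of the 73 values were above 0. The changes were mostly modest: 10 of the 30 rises reached 1.5-fold and 1, MRPL27, reached 2-fold. A further 11 members had an unadjusted p under 0.05 without being called. No member had a mean signal under 5, and 64 had one of at least 8, where more genes are called in general. Of the 4898 genes with a mean of at least 8, 16.3% rose and 13.3% fell, and of the 64 members at that level 25 rose (39.1%) and 1 fell. Without knockdown array 1 the count of rises was 18 (4.38% of all genes), and with the level of spike-in control RNAs as a covariate it was 9, when 1.56% of all genes rose. On probe sets ending in _at, which by their suffix match 1 transcript sequence and measure 31 members, 9 rose (4.80% of all genes).

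**Figure D1:**
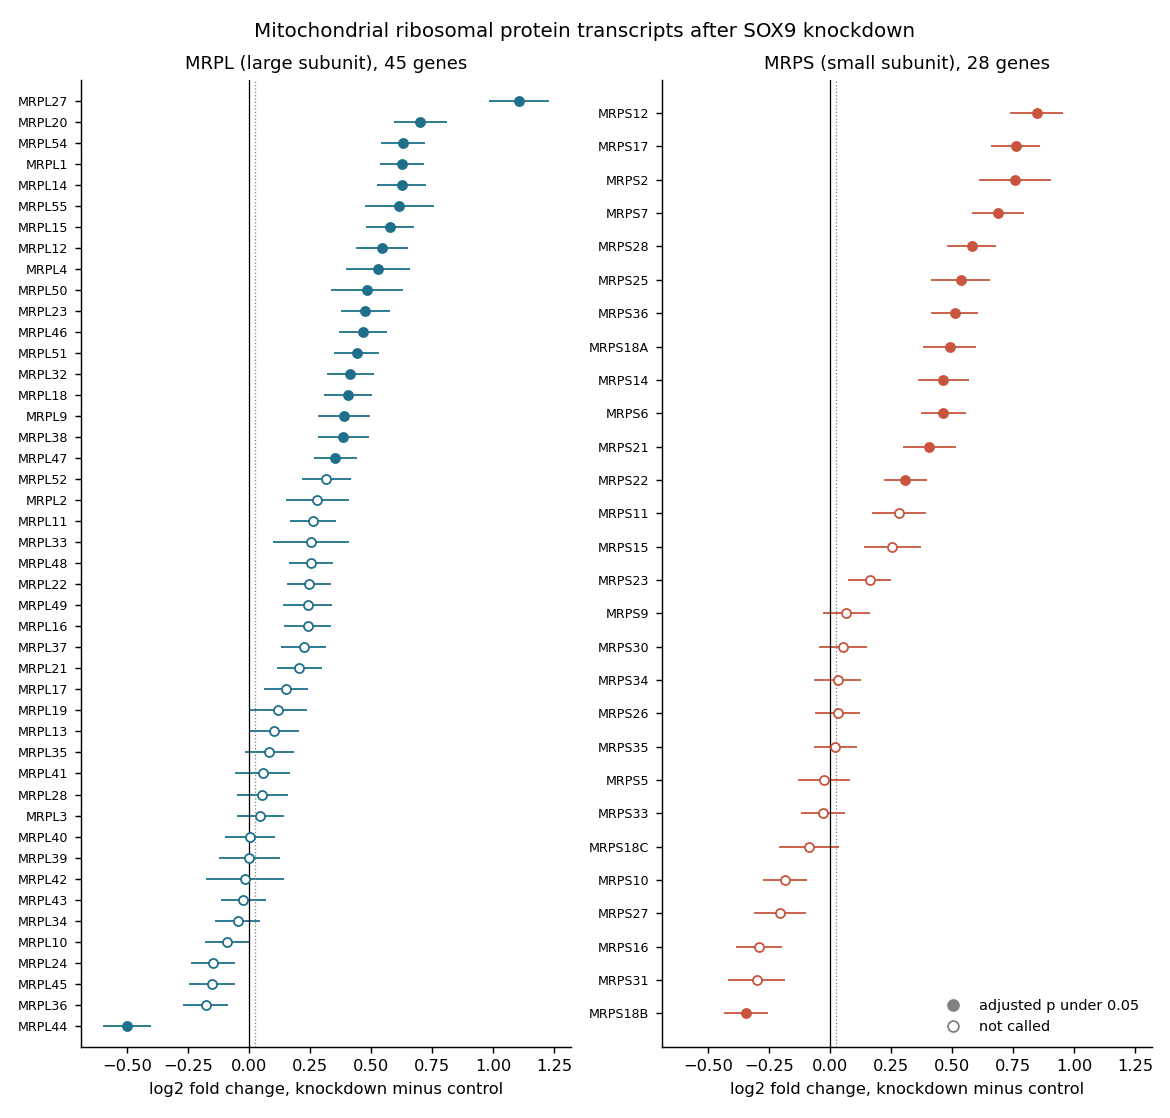
Log2 fold change of each gene (x axis, knockdown minus control, points with SE bars), with MRPL genes on the left and MRPS genes on the right, ordered by size. Filled points are genes with limma adjusted p under 0.05 and the dotted line is the median of all genes, 0.03; 30 filled points lie to the right of 0 and 2 to the left.

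All 3 knockdown arrays lay above all 3 control arrays for 41 of the 73 genes, and below them for 9, so that the groups did not overlap for 68.5%. Over all genes the corresponding shares were 16.9% above and 15.5% below, 32.4% together. Averaged over the 73 genes, the signal was 9.11, 9.13 and 9.20 on control arrays 1 to 3 and 9.41, 9.40 and 9.37 on the knockdown arrays. Control 3 was the highest control for 23 of the 30 genes that rose. That array also had a higher poly-A spike-in level (6.95) than controls 1 and 2 (6.36 and 6.48), near the 6.79 to 7.12 of the knockdown arrays. Its 3' minus 5' signal of GAPDH, a sign of RNA quality, was 0.26, against 0.04 and 0.03 in the other controls and 0.24 to 0.42 in knockdown arrays. The same measure for actin ran the other way and set control 3 with its group, at 2.56, 2.55 and 2.51 on control arrays 1 to 3 and 2.29, 2.34 and 2.19 on the knockdown arrays. The part of labelling and RNA quality in the rises was not tested beyond that covariate. Without control 3, 31 member genes rose, 29 of them among the 30, and 10.5% of all genes rose.

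The large and small subunits had like shares of rising genes. In the large subunit 18 of 45 genes rose (40.0%) and 1 fell, with a median log2 fold change of 0.25. In the small subunit 12 of 28 rose (42.9%) and 1 fell, with a median of 0.21. Without knockdown array 1 these counts of rises were 10 and 8. The large subunit mean was 9.14, 9.15 and 9.23 on the control arrays against 9.45, 9.43 and 9.43 after knockdown, and the small subunit mean was 9.05, 9.10 and 9.15 on the control arrays against 9.34, 9.34 and 9.29 after knockdown. The large minus small difference of these means was 0.09, 0.05 and 0.08 on the control arrays against 0.11, 0.09 and 0.14 after knockdown, ranges that overlap. No test of this difference was made, since it would be a test of a score over chosen members.

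**Figure D2:**
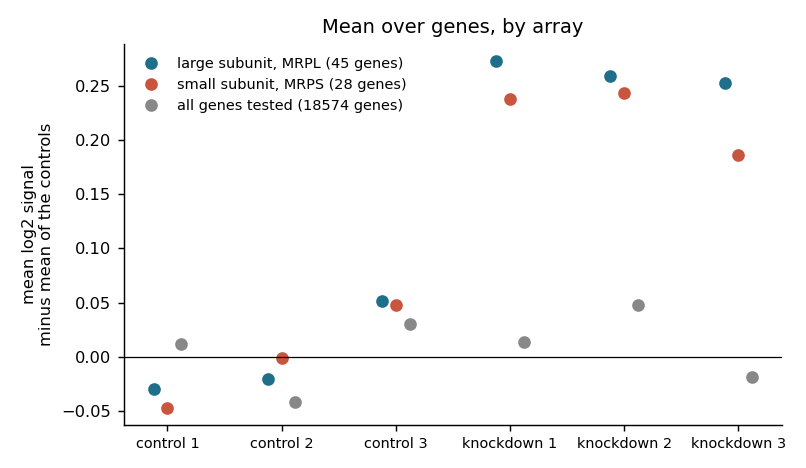
Mean log2 signal over the 45 MRPL genes, the 28 MRPS genes and all 18574 genes on each of the 6 arrays, each shown relative to its own mean over the 3 controls. Both subunits are higher on every knockdown array than on any control, control 3 is the highest control of both, and the mean of all genes differs by 0.014 between the groups.

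Symbols and places in the ribosome do not always match. MRPS30 and MRPS18A are named for the small subunit but sit in the large one, and MRPS36, now called KGD4, is a subunit of the 2-oxoglutarate dehydrogenase complex rather than of the ribosome. MRPS36 rose from 8.63 ± 0.11 to 9.14 ± 0.02 (SD, n = 3), MRPS18A rose by 0.49, and MRPS30 read 0.05. Sorted by place, 19 of 47 large subunit genes rose (40.4%) with a median of 0.25, and 10 of 25 small subunit genes rose (40.0%) with a median of 0.16.

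Within each subunit the proteins inherited from bacteria and those added in mitochondria were described apart. In the small subunit 8 of 15 genes with a bacterial counterpart rose (53.3%) and 0 fell, with a median of 0.41. Of its 10 mitochondria-specific genes 2 rose, MRPS25 and MRPS22, and 1 fell, MRPS18B, with a median of 0.03. MRPS18A and MRPS18B descend from bacterial S18 but were counted as mitochondria-specific because they occupy other places. In the large subunit 13 of 29 genes with a counterpart rose (44.8%) and 0 fell, with a median of 0.26. Of its 18 mitochondria-specific genes 6 rose (33.3%) and 1 fell, MRPL44, with a median of 0.23. The difference between these classes was not tested.

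**Figure D3:**
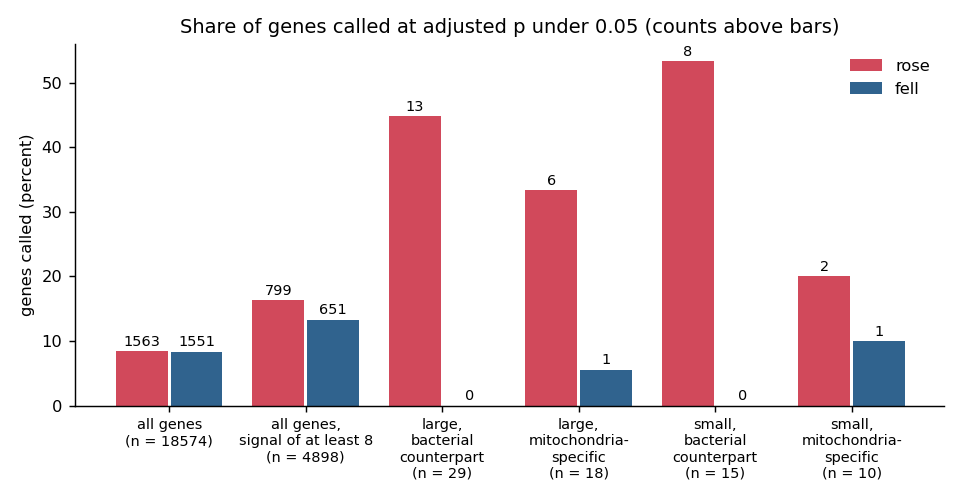
Percent of genes that rose (red) or fell (blue) at limma adjusted p under 0.05 among all genes, all genes with a mean log2 signal of at least 8, and the ribosomal proteins by subunit (as placed in the ribosome) and origin, with counts above the bars. Rises range from 20.0% to 53.3% of the 4 ribosomal classes, against 8.41% of all genes and 16.3% of genes with high signal.

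Small subunit genes with a bacterial counterpart held several of the largest rises. MRPS12, whose bacterial counterpart lies at the decoding centre and is a site of streptomycin resistance, read 8.73, 8.75 and 9.0 on the control arrays against 9.74, 9.70 and 9.58 after knockdown. The groups were well apart, and MRPS12 rose 1.80-fold (log2 fold change 0.85, SE 0.11; adjusted p = 8.53e-04 by limma). MRPS17, which binds the ribosomal RNA of the small subunit body, read 8.71, 8.73 and 8.92 against 9.60, 9.56 and 9.48. It rose 1.69-fold (limma adjusted p = 9.52e-04). Of the other probe sets of MRPS17, that at 0.48 was called, and those at 0.18 and 0.23 were not. MRPS2 read 8.24, 8.32 and 8.79 on the control arrays against 9.30, 9.26 and 9.06 after knockdown. Control 3 stood between the other controls and the knockdown arrays, and MRPS2 rose by 0.76 (SE 0.15, limma adjusted p = 0.00668).

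MRPS7, whose bacterial counterpart starts the assembly of the small subunit's head, read 8.14, 8.30 and 8.47 on the control arrays against 9.04, 8.94 and 8.99 after knockdown. It rose by 0.69 (SE 0.11, limma adjusted p = 0.00233), and both of its probe sets were called. MRPS28 rose by 0.58, MRPS6 by 0.46, MRPS14 by 0.46 and MRPS21 by 0.41. MRPS6 was among the tightest, at 8.79, 8.80 and 8.75 on the control arrays against 9.15, 9.29 and 9.28 after knockdown. Not every gene of this class was higher: MRPS16, mutated in a fatal infantile disease of mitochondrial translation, read 10.40, 10.35 and 10.21 against 10.01, 10.10 and 9.98, a log2 value of -0.29 that was not called (limma adjusted p = 0.0668). MRPS10 read -0.19 and MRPS5 -0.03, neither called.

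Among mitochondria-specific small subunit genes MRPS25 rose by 0.53 and MRPS22 by 0.31, both of them known disease genes. The rise of MRPS25 stood on 1 of its 5 probe sets, and the others read from -0.04 to 0.04. Neither probe set of MRPS22 was called over all probe sets (limma adjusted p 0.0586 and 0.464). MRPS18B read 9.73, 9.87 and 9.85 on the control arrays against 9.49, 9.46 and 9.46 after knockdown. All knockdown values were lower, and MRPS18B fell by 0.35 on the log2 scale (SE 0.09, limma adjusted p = 0.0269). That call was lost with the spike-in covariate (0.111), on the probe set of largest variance (0.0666), with a replicate block (0.123) and without any 1 array but control 1 (limma adjusted p 0.0515 to 0.0903). MRPS31 (-0.30) and MRPS27 (-0.21), an RNA-binding protein with pentatricopeptide repeats, were lower without being called. MRPS33, MRPS34, MRPS35 and MRPS26 read between -0.03 and 0.03.

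The 3 paralogs of bacterial S18 had unlike values on their strongest probe sets, which were not tested against each other. MRPS18A, the copy in the large subunit, read 7.54, 7.42 and 7.75 on the control arrays against 8.08, 8.10 and 7.99 after knockdown and rose 1.40-fold (limma adjusted p = 0.0119). MRPS18B fell, as given above. MRPS18C, the copy that takes the place of S18 in the small subunit, read 9.34, 9.28 and 8.95 against 8.98, 9.18 and 9.17, a log2 value of -0.09 that was not called. Its other probe sets read 0.70 and 0.32, the former called over all probe sets (limma adjusted p = 0.0146), so the direction of MRPS18C depends on the probe set.

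The largest rise of the family was in the large subunit. MRPL27, whose bacterial counterpart reaches toward the peptidyl transferase centre, read 8.84, 8.94 and 9.23 on the control arrays against 10.17, 10.21 and 9.96 after knockdown. The groups were far apart, and MRPL27 rose 2.15-fold (log2 fold change 1.11, SE 0.12; adjusted p = 4.87e-04 by limma). It has 1 probe set. MRPL20, an early assembly protein in bacteria, read 10.22, 10.19 and 10.48 against 11.09, 10.99 and 10.92 and rose by 0.70 (SE 0.11, limma adjusted p = 0.00235). Its other probe sets, of lower signal, read 0.17 and 0.09 and were not called. As a mean of its probe sets MRPL20 read 0.32 and was not called (limma adjusted p = 0.0541). MRPL1, the protein of the mobile stalk beside the tRNA exit site, read 8.04, 8.03 and 8.0 on the control arrays against 8.74, 8.59 and 8.63 after knockdown. The controls of MRPL1 were nearly equal (SD 0.02, n = 3), and it rose 1.55-fold (limma adjusted p = 0.00170).

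**Figure D4:**
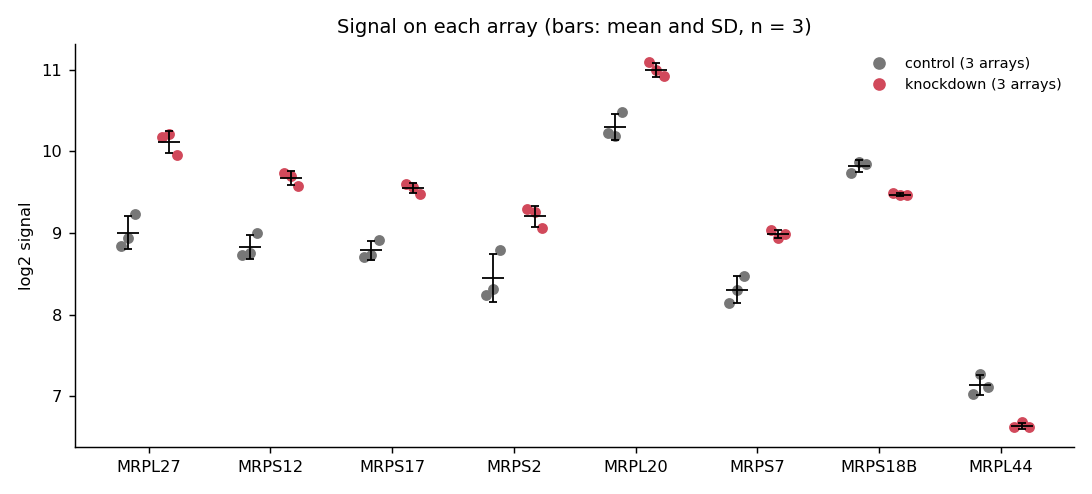
Log2 signal on each array (grey control, red knockdown, bars mean and SD, n = 3) for the 6 genes with the largest rises and for the 2 that fell. In each of the 8 genes the 3 knockdown arrays lie apart from the 3 controls; MRPL27 shows the widest step and control 3 is the highest control of the 6 rising genes.

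MRPL54, a mitochondria-specific protein, rose by 0.63 from 8.69 ± 0.06 to 9.32 ± 0.05 (SD, n = 3; limma adjusted p = 0.00166). MRPL14, a protein of the face that meets the small subunit, rose by 0.63, MRPL55 by 0.62 and MRPL15 by 0.58. In the stalk that recruits translation factors, MRPL12 rose from 7.83 ± 0.12 to 8.38 ± 0.11 (SD, n = 3), a log2 fold change of 0.55 (limma adjusted p = 0.00657). A probe set that MRPL12 shares with SLC25A10 read 0.15 and was not called. MRPL10, which anchors MRPL12 to the ribosome, read -0.09 and MRPL11, at the base of the stalk, read 0.26 with a limma adjusted p of 0.0883. The members of the stalk therefore did not share 1 value, though their differences were not tested against each other.

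Of proteins of the central protuberance, the crown of the large subunit, MRPL46 rose by 0.47, MRPL18 by 0.40 and MRPL38 by 0.39. MRPL48 (0.25) and MRPL40 (0.00) were not called. Around the exit of the nascent chain MRPL23 rose by 0.48, while MRPL22 (0.25), MRPL24 (-0.15) and MRPL45 (-0.15), which anchors the ribosome to the inner membrane, were not called. MRPL47, next to them, rose by 0.35. The remaining rises were MRPL4 (0.53), MRPL50 (0.48), MRPL51 (0.44), MRPL32 (0.415) and MRPL9 (0.39). MRPL50 only just passed (limma adjusted p = 0.0499), and MRPL52 only just missed (0.32, limma adjusted p = 0.0549).

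MRPL44, a protein with the fold of a ribonuclease that is mutated in a childhood cardiomyopathy, was the large subunit gene that fell. It read 7.03, 7.27 and 7.11 on the control arrays against 6.62, 6.68 and 6.62 after knockdown. The highest knockdown value was below the lowest control, and the log2 fold change was -0.50 (SE 0.10, limma adjusted p = 0.00690). MRPL44 was called without each array in turn, but not with the spike-in covariate (limma adjusted p = 0.0821). Other low values, MRPL36 (-0.18) among them, were not called. MRPL3, a core protein near the catalytic centre, read 11.33, 11.39 and 11.18 on the control arrays against 11.31, 11.35 and 11.37 after knockdown, groups that overlap. MRPL39 read 0.00 and MRPL43 -0.02. Among the largest values that were not called, MRPL2 read 0.28, MRPS11 0.28, MRPS15 0.26 and MRPL33 0.25.

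Over probe sets, 43 of 158 rose (27.2%) and 2 fell, MRPL44 and MRPS18B, when limma's p was adjusted over all 49293 probe sets, of which 5.94% rose and 6.68% fell (12.6% together). By symbol these were 24 of 90 MRPL and 19 of 68 MRPS probe sets. Without 1 array the count of 43 was 16 (knockdown 1), 19 (control 1), 24 (knockdown 2) or 26 (knockdown 3). In the same fits fewer genes rose in general too, at 4.38%, 4.82%, 5.55% and 6.46% of all genes against 8.41%. The share over all probe sets in these fits is not given here. Of the 30 rising genes 17 had more than 1 probe set. In 3 of the 17 all probe sets were called, and in 7 at least 2 were. MRPL50, MRPL9 and MRPS22 had no probe set called when p was adjusted over all probe sets. In 4 of the 17 another probe set read below 0. These were MRPL15 (-0.33 on a probe set near 4.8 in control), MRPL50 (-0.30), MRPS14 (-0.33) and MRPS25 (as low as -0.04), and none of the values below 0 was called. MRPS12 was called on 3 of 4 probe sets, at 0.85, 0.99 and 0.75. MRPS36 was called on all 3. No gene had probe sets called in both directions, and 6 genes that were not called had a rising probe set, MRPL43 with 2 of them (0.59 and 0.38). Probe sets ending in _s_at or _x_at can also match other transcripts, and 5 of the 30 rises rest on such a set.

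**Figure D5:**
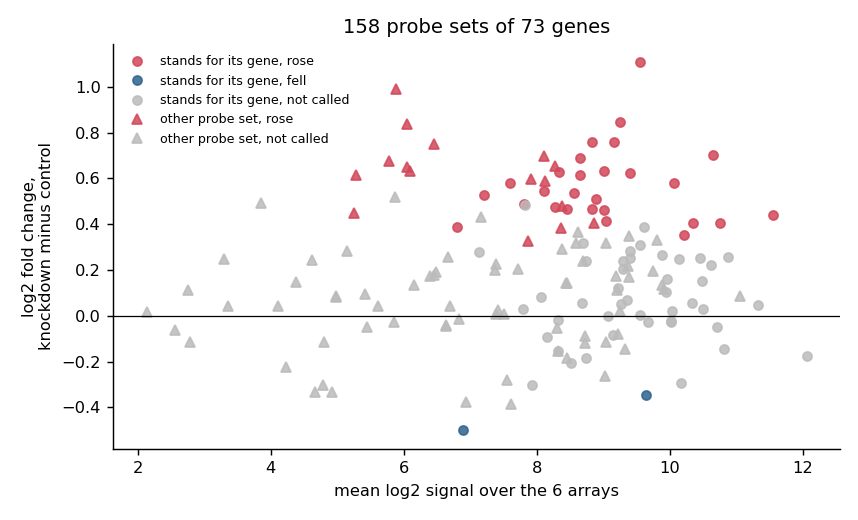
Log2 fold change (y axis, knockdown minus control) against mean log2 signal over the 6 arrays (x axis) for the 158 probe sets of the 73 genes, circles for the probe set that stands for its gene and triangles for the others. Red and blue points rose or fell at limma adjusted p under 0.05 over all probe sets; 43 are red, 2 are blue, and the called rises span the range of signal above about 5.

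Some genes that start back to back with a member were compared with it where their promoter windows overlap. With both genes on the arrays 6 such pairs were counted, whose windows share 181 to 299 bases. In none of the 6 did a partner fall, where 8.35% of all genes fell and 8.41% rose. Pairs with starts nearer to each other than in these were not counted, so the 6 are not the full set of back-to-back pairs. In 1 pair both genes rose, MRPL32 (0.415) and PSMA2 (0.41, limma adjusted p = 0.0262), which encodes a proteasome subunit. The windows of these 2 genes share 299 bases. In the pair MRPL46 and MRPS11, the only one of the 6 made of 2 members, MRPL46 rose by 0.47. MRPS11 read 9.24, 9.19 and 9.36 on the control arrays against 9.56, 9.70 and 9.37 after knockdown. The groups of MRPS11 lie next to each other without overlap, and its value of 0.28 was not called (limma adjusted p = 0.117). All 6 of its probe sets read above 0, and 1 of them rose (0.61, limma adjusted p = 0.0144 over all probe sets). Beside MRPS7, MRPL14 and MRPL50, which rose, the partners GGA3 (-0.23), TMEM63B (-0.03) and ZNF189 (0.01) were not called. HELQ, beside MRPS18C, read -0.17.

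Proteins of the mitochondrial ribosome that the deposited table lists under other symbols were described together with OXA1L, the inner membrane insertase the ribosome docks on. Of these 8 genes 2 rose (25.0%) and 1 fell (12.5%), with a median of 0.05. The gene that fell was OXA1L, which is not itself a ribosomal protein. AURKAIP1, a small subunit protein, averaged 8.68 ± 0.36 in controls and 9.73 ± 0.12 after knockdown (SD, n = 3) and rose 2.06-fold (limma adjusted p = 0.00239). GADD45GIP1, of the large subunit, rose by 0.40, and OXA1L fell by 0.32 on the log2 scale (limma adjusted p = 0.0374). DAP3 (-0.16) and PTCD3 (-0.11), RNA- or nucleotide-binding proteins of the small subunit, and MRPL58 (-0.02) were not called, nor were CHCHD1 (0.28, limma adjusted p = 0.0647) and MRPL57 (0.13).

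Factors that work with the ribosome were described in separate lists, beside all genes, of which 8.41% rose and 8.35% fell. Of 17 translation factors and messenger RNA partners 2 fell (11.8%) and 1 rose (5.88%), SLIRP (0.41, limma adjusted p = 0.0121), the partner of LRPPRC (-0.17, not called). The initiation factor MTIF2 and the release factor MTRF1 fell, by 0.41 and 0.35 on the log2 scale, and the median was 0.07. The elongation factors TUFM (0.13), TSFM (0.23) and GFM1 (0.09) were not called. Of 26 genes of ribosome assembly and ribosomal RNA modification 4 rose (15.4%) and 2 fell (7.69%), with a median of 0.14. The rises were TRUB2 (0.69), a pseudouridine synthase, MPV17L2 (0.60), the helicase DHX30 (0.52) and RPUSD4 (0.44). NSUN4, a methyltransferase of ribosomal RNA, fell by 0.71 on the log2 scale (limma adjusted p = 0.00314) and YBEY fell by 0.36.

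Genes of mitochondrial transcription and regulators of nuclear genes for mitochondria held 2 that rose and 2 that fell of 17 (11.8% each), with a median of 0.15, shares not far from those of all genes. PPRC1, a coactivator, rose by 0.40 and POLG, the polymerase of mitochondrial DNA, by 0.34. PPARGC1A, the coactivator best known for inducing mitochondrial genes, averaged 8.52 ± 0.18 in controls and 7.76 ± 0.07 after knockdown (SD, n = 3) and fell by 0.76 on the log2 scale (limma adjusted p = 0.00180). MYC fell by 0.67. NRF1 (0.41, limma adjusted p = 0.0577), GABPA (0.15), the ETS factor whose letters recur in the promoters above, its partner GABPB1 (0.32, limma adjusted p = 0.0504), TFAM (0.35) and YY1 (-0.18) were not called.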

How the data were processed

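RNA of 6 samples labelled HepG2, 3 control and 3 knockdown, was measured on expression arrays after labelling with a 3' in vitro transcription kit. Groups come from the titles. The authors deposited log2 expression values of 49372 probe sets, made with RMA and the affy package per the submitters' processing notes. For their versions, the array design and the genome build nothing is given in the sources used here. RMA equalises the arrays, so a change shared by most transcripts is removed, and it compresses low signals. A second deposited table held the same log2 values (0 differences). The number of arrays limits the precision.

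Control probe sets (79) were left out of tests. Symbols came from the table's Entrez numbers through RefSeq names (GRCh38.p14). The contrast was fitted by lmFit and eBayes of limma 3.58.1 under R 4.3.3 (two-sided, no covariate, no signal filter), with Benjamini-Hochberg adjustment over 18574 genes, each on its probe set of highest mean, or over 49293 probe sets. The threshold was 0.05. The fit was tested on simulated data. Tables and plots used Python 3.11.15, pandas 2.3.3 and matplotlib 3.10.9.

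The members, gene lists, tests and alternatives were chosen with earlier results of these data known. Named were SOX9, all called members, the 6 largest values in each direction among the others, the MRPS18 paralogs, misnamed members, members with discordant probe sets and the called genes of each list; the others were named for their place in the ribosome or after their values were seen. Alternatives were a signal filter, further normalization, other variance models, array weights, a replicate block, a spike-in covariate, other probe set rules, subunits by place, and leaving out each array.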

Additional observations from a re-analysis of the deposited data

Results flagged for a closer look

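Probe sets assigned to several genes were outside the comparisons, and 13 of them name a symbol of the family. Of these 4 were higher in knockdown than in control arrays at limma adjusted p under 0.05 over all probe sets, which is why they are listed. For the large subunit gene MRPL30, which has no probe set of its own and shares these with C2orf15, the log2 fold changes were 0.50 (5.85 in control), 0.52 (8.83 in control) and 0.40 (9.86 in control). For MRPS28, on a probe set shared with TPD52, it was 0.50 (limma adjusted p = 0.0103), beside 0.58 on the probe set of MRPS28 alone. The signal of these probe sets cannot be assigned to 1 of the 2 genes. In the other direction the probe set shared by the pseudogene MRPS31P5 and THSD1 read -0.52. MRPS24 (0.32) and MRPL53 (0.32 and -0.07), also measured with another gene, were not called. For MRPL12, on a probe set shared with SLC25A10 (8.56 in control), the value was 0.15, beside 0.55 on its own probe set (7.83 in control). That shared probe set was not called (limma adjusted p = 0.392). Probe sets shared by MRPS16 and DNAJC9 read 0.02, -0.08 and 0.27, none called.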

How the results depend on the processing

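With the spike-in level as a covariate 9 member genes rose (4 MRPL and 5 MRPS) and 0 fell, all 9 among the 30. On _at probe sets alone 9 rose (5 and 4), 7 of them among the 30, and 1 fell. The cause of these differences was not tested, apart from the 31 members measured in the latter. Falls numbered 1 on the probe set of largest variance. Same-numbered arrays deviated from their group means with correlations of -0.24, -0.40 and -0.42, so the numbers did not pair them. Control 1 with knockdown 2 (0.35), control 2 with knockdown 3 (0.53) and control 3 with knockdown 1 (0.34) deviated together, in the order of their spike-in levels. With a block on the given numbers, which these values do not bear out, 22 member genes rose, all among the 30, and 1 fell. Over probe sets 22 rose and 0 fell with that block, where 5.77% of all genes rose. Over probe sets the spike-in covariate left 5 rises and 0 falls, where 1.56% of all genes rose. Falls of probe sets numbered 6 with array weights and 1 with median centring, where 10.1% and 7.74% of all genes fell. These shares come from the fits over genes, and those over all probe sets are not given for these alternatives. In the main fit 5.94% of probe sets and 8.41% of genes rose, and 6.68% of probe sets and 8.35% of genes fell.

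The MRPL median was 0.0817 on _at probe sets, 0.20 for their means and 0.21 with that covariate. The MRPS median was 0.14 for means of probe sets, 0.36 on the probe set of largest variance, 0.16 with the covariate and 0.16 by place in the ribosome. SOX9 was lower throughout, but read -0.81 and missed the threshold on _at probe sets (limma adjusted p = 0.0649) and on the probe set of largest variance (0.0526); its adjusted p was 3.51e-04 to 0.0193 under the other alternatives.

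Leaving out 1 array at a time gave 18 to 31 rising genes and 1 to 3 falling, with 10 to 18 MRPL and 8 to 13 MRPS rises. Over all genes 4.38% to 10.5% rose and 5.08% to 8.68% fell in these fits. Of member probe sets 16 to 48 rose and 0 to 3 fell. The share over all probe sets is not given for these fits, so how far these counts follow it cannot be told. The MRPL median ran from 0.22 to 0.29, the highest without control 3, the MRPS median from 0.17 to 0.25, and SOX9 from -1.10 to -0.86. Of the 30 rises 16 were called without each array in turn, and 8 (MRPL1, MRPL27, MRPL54, MRPS12, MRPS17, MRPS28, MRPS6 and MRPS7) in every alternative but _at probe sets. The remaining rises lost their call without at least 1 array. MRPS18B lost its call without any 1 array but control 1.

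Signs turned with the choice of probe set. On _at probe sets MRPS25 read -0.0128, MRPS15 -0.22, MRPS16 0.20, MRPS18C 0.70 and YBEY 0.0092. On the probe set of largest variance MRPL50 read -0.30, MRPS15 -0.22, MRPS16 0.20 and MRPS18C 0.70. MRPS18C also read 0.31 as a mean over its probe sets and 0.15 under the covariate. The second deposited table gave no separate value because it holds the same numbers.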

Other observations

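The genes that rose were spread over 14 chromosomes. On chromosome 1 5 of 8 members rose (8.93% of all its genes), on chromosome 17 4 of 7 (11.1%) and on chromosome 19 3 of 4 (9.88%). On chromosome 2 none of 6 rose (7.32% of all its genes) and MRPL44 fell. On chromosome 11 1 of 7 rose, MRPL23 (9.11% of all its genes). The median log2 fold change of all genes of a chromosome that holds members lay between -0.02 and 0.08. With 1 to 8 members on a chromosome these counts are small, and they were not tested.

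Genes of the mitochondrial ribosome are short, with a median span of 9678 bases in RefSeq against 26242 for all genes. Of all genes with a mean signal of at least 8, 24.1% of those spanning under 10000 bases rose and 14.2% of the longer ones. Among members 16 of 37 under that length rose (43.2%) and 14 of 36 above it (38.9%).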
